A study of Homo sapiens with 9 samples.

Results

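The SOX transcription factors were followed across the Ewing sarcoma cell line TC-71 and in 3 drug-resistant derivatives of it, each raised against an agent that blocks the IGF-1 receptor. The set held 10 genes (SOX2, SOX4, SOX5, SOX6, SOX7, SOX8, SOX9, SOX11, SOX12 and SOX17), taken by name from the family, with all 34 of their probe sets that carried 1 gene symbol, out of 54613 probe sets on the Affymetrix HG-U133 Plus 2 array. The main probe set of a gene was chosen by its measured level, as the brightest by its mean of 9 arrays, so that level is no result, and the members were proposed with their differences between lines in view, so the tests on them describe and do not support. Of the 34 probe sets 22 passed the filter on low values (at least 2 of 9 arrays at 5 or more on the log2 scale), and 8 of the 10 genes were tested among 14181 genes. SOX9 and SOX17 stayed below the filter.

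TC/AEW was raised in NVP-AEW541, which inhibits the kinase of the receptor, to a top concentration of 5 µM. AVE1642, an antibody to the receptor, served for TC/AVE, to a top of 10 µg/ml. For TC/CP the agent was the antibody figitumumab, and its top concentration is not used here. Selection lasted 6 months per the protocol, in Iscove medium with 10% serum, and each resistant line stood as 1 line with 2 technical replicate arrays. TC-71, the parental line with no selection, stood as 3 samples with 1 array each. Levels are log2 values from RMA, and the 2 arrays of a line were averaged into 1 sample before any test. The labels do not say that the TC-71 samples were carried alongside the selection, so resistance and time in culture cannot be told apart. The TC-71 samples are labelled biological replicates. A p-value or interval for a single line rests on their spread, which limma drew toward a spread pooled over all genes tested. That fit had 3.00 prior and 2 residual degrees of freedom, and the lone sample of the line is assumed to vary as the TC-71 samples do. Each TC-71 sample also lies in a different array set by the scan file names, so that spread includes any difference between sets.

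SOX proteins bind the minor groove of DNA through a high mobility group domain and bend it, usually beside a partner factor. They fall into subgroups by the sequence of that domain. SOXB1 factors hold stem and neural progenitor states, SOXC factors act in immature neurons and mesenchyme, SOXD factors lack an activation domain and work with SOX9 in cartilage, SOXE factors act in neural crest, glia and cartilage, and SOXF factors in vessels and endoderm. Ewing sarcoma is driven by a fusion of EWSR1 with an ETS factor, most often FLI1, and SOX2 and SOX6 are among the genes linked to that fusion.

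Median levels over all probe sets ran from 5.39 to 5.45 on the 9 arrays. Between the 2 arrays of a line the median gene differed by 0.12 (TC/AEW), 0.07 (TC/AVE) and 0.08 (TC/CP) on the log2 scale, against a median SD of 0.22 over the TC-71 samples. All 8 Ewing sarcoma markers with a single-symbol probe set passed the filter, of which 5 were higher in TC/AEW, 5 in TC/AVE and 3 in TC/CP, with median differences of 0.11, 0.12 and -0.36. NKX2-2, a target of the fusion, stood at 9.16 in TC/AEW, 9.05 in TC/AVE, 8.72 in TC/CP and 9.20 ± 0.24 in TC-71 (SD, n = 3). LIPI, a lipase gene typical of this tumour, was lower on every line array, at 5.82 in TC/AEW, 5.23 in TC/AVE, 5.33 in TC/CP and 7.01 ± 0.49 in TC-71. BCL11B, another target, stood at 10.81 in TC/AEW, 10.64 in TC/AVE, 10.22 in TC/CP and 9.92 ± 0.32 in TC-71, and CD99, the surface marker of this tumour, named after its values were seen, was higher on every line array, by 0.12 in TC/AEW, 0.17 in TC/AVE and 0.11 in TC/CP. The markers of endothelial cells averaged 4.48 in TC/AEW, 4.37 in TC/AVE, 4.40 in TC/CP and 4.22 to 4.50 in TC-71, with CDH5, KDR and TIE1 under 5 on every array. Those of blood cells averaged 4.92 in TC/AEW, 4.90 in TC/AVE, 4.88 in TC/CP and 4.84 to 5.04 in TC-71, with PTPRC, LYZ and CD14 under 5. Those of epithelial cells averaged 4.88 in TC/AEW, 4.83 in TC/AVE, 4.73 in TC/CP and 4.96 to 5.05 in TC-71, with EPCAM and CDH1 under 5. KRT18 was lower on every line array, at 5.88 in TC/AEW, 5.79 in TC/AVE, 5.65 in TC/CP and 6.82 ± 0.18 in TC-71. KRT8 went the other way, at 6.12 in TC/AEW, 6.11 in TC/AVE, 5.89 in TC/CP and 5.72 ± 0.35 in TC-71. Fibroblast markers averaged 7.09 in TC/AEW, 5.78 in TC/AVE, 6.34 in TC/CP and 5.75 to 6.52 in TC-71, with COL1A2 under 5 on every array, and their part in the SOX values was not tested. HBB, a globin gene of red cells, still read 5.95 in TC/AEW, 5.96 in TC/AVE, 5.85 in TC/CP and 5.91 ± 0.15 in TC-71. CD79A, a B cell gene, read 6.40 in TC/AEW, 6.41 in TC/AVE, 6.41 in TC/CP and 6.53 ± 0.24 in TC-71. Readings under 6, and some above it, may thus be background.

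**Figure D1:**
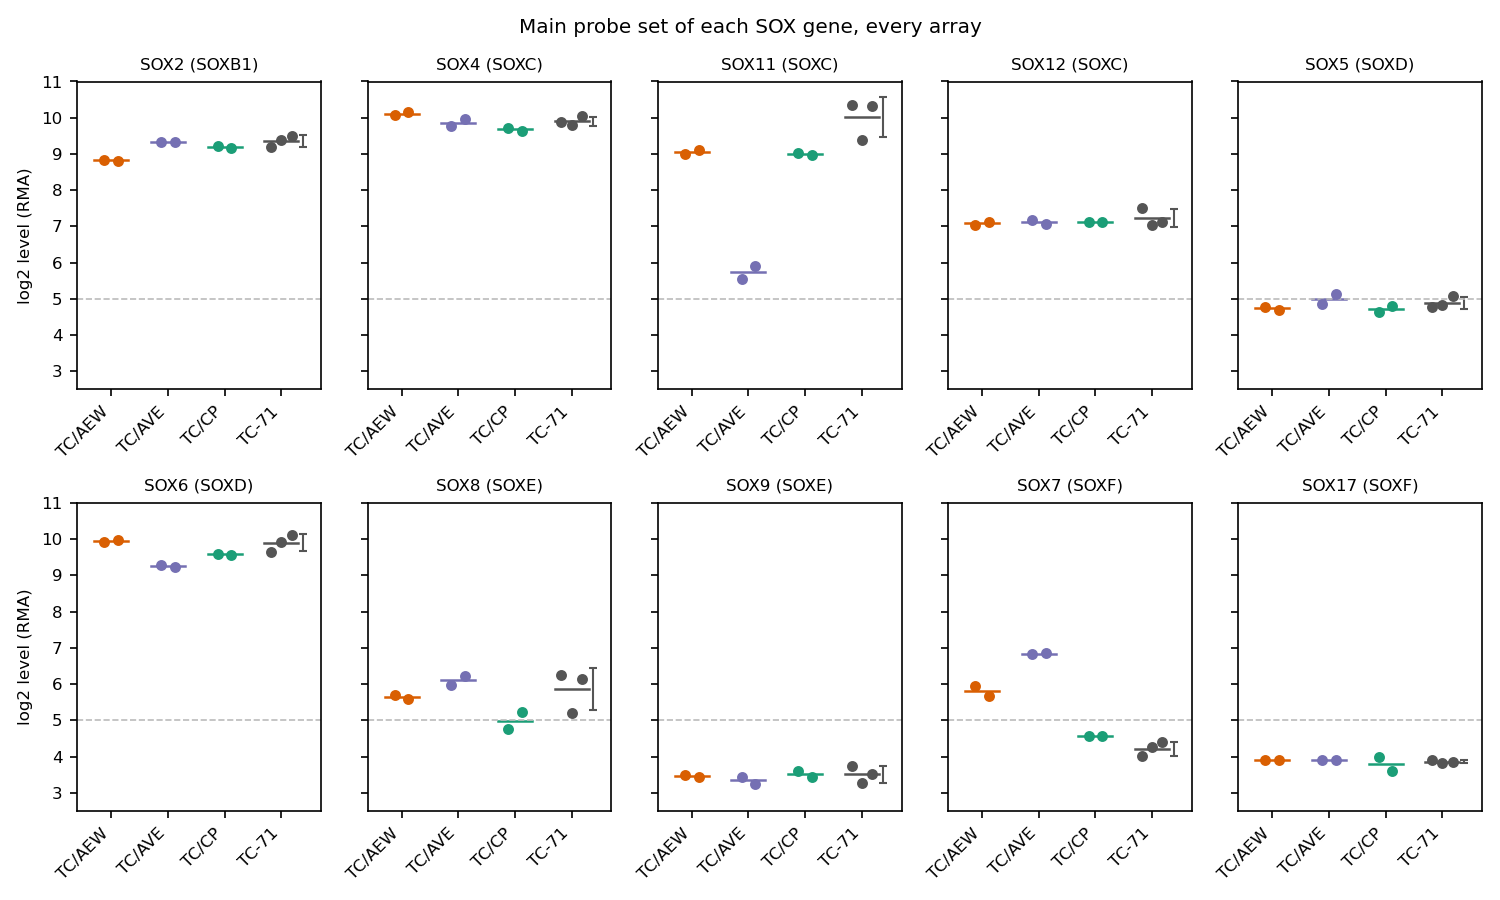
Log2 level (vertical axis, RMA) of the main probe set of each SOX gene on every array. Points are arrays, horizontal lines group means, the bar beside TC-71 its SD over 3 samples and the dashed line the filter at 5. SOX11 in TC/AVE (5.56 and 5.91) stands apart from the other groups, and SOX7 is above the filter in TC/AEW and TC/AVE only.

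SOX11, SOX4 and SOX12 form the SOXC subgroup. SOX11, a factor of immature neurons that is shut off as they mature, was far lower in TC/AVE than in TC-71, while SOX4 and SOX12 differed from TC-71 by 0.22 or less in size on their main probe sets. SOX11 read 8.998 and 9.11 in TC/AEW, 5.56 and 5.91 in TC/AVE, 9.04 and 8.97 in TC/CP, and 10.35, 9.38 and 10.33 in TC-71. Every array of the 3 lines lay below all TC-71 arrays, and both TC/AVE arrays lay below every other array. The order of levels was TC/AVE, TC/CP, TC/AEW and TC-71, in which TC/CP and TC/AEW differed by less than the distance between the 2 arrays of TC/AEW. In bulk RNA, fewer cells with the transcript and less of it per cell cannot be told apart.

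In TC/AVE SOX11 stood at 5.73, against 10.02 ± 0.55 in TC-71 (SD, n = 3), a difference of -4.29 ± 0.45 (SE, 95% interval -5.45 to -3.13, 19.6-fold lower). It ranked number 2 of 14181 genes from the lowest difference in that line. By limma it did not pass over all genes (unadjusted p = 0.000217, adjusted p = 0.193), where limma called 0 genes (0% of genes tested) and 1018 (7.18%) had an unadjusted p under 0.05. With each array centred on its median gene, limma gave adjusted p = 0.0258 at nearly the same size (-4.30), so the call depends on that choice. Since 5.73 is close to readings that may be background, the fold may be a lower bound. Within the array set that holds TC/AVE and TC-71 sample 2 the difference was -3.65.

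The differences of the other lines were smaller. TC/AEW stood at 9.06, a difference of -0.97 ± 0.45 (1.96-fold lower, adjusted p = 1.00 by limma), and TC/CP at 9.002, a difference of -1.02 ± 0.45 (2.03-fold lower, adjusted p = 0.998). Against the TC-71 sample of its own array set, TC/AEW was -0.33 and TC/CP -1.33, so the size in TC/AEW rested on TC-71 samples 1 and 3. The 3 comparisons share the TC-71 samples.

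The other probe sets of SOX11 gave the same picture for TC/AVE. TC/AEW and TC/CP lay further apart on 204913_s_at, at -0.56 and -1.12 from TC-71. On 204913_s_at the arrays read 9.09 and 9.12 in TC/AEW, 5.52 and 5.64 in TC/AVE, 8.73 and 8.36 in TC/CP, and 9.61, 9.54 and 9.84 in TC-71. On 204915_s_at they read 7.63 and 7.75 in TC/AEW, 4.75 and 4.61 in TC/AVE, 7.66 and 7.75 in TC/CP, and 9.05, 8.27 and 9.12 in TC-71. Both placed every line array below all TC-71 arrays, with differences in TC/AVE of -4.08 and -4.13, the second a bound since its level was under 5. Of the nearest tested genes on either side of SOX11, RPS7, a ribosomal protein gene, differed in TC/AVE by -0.01, and CMPK2, a mitochondrial nucleotide kinase gene, by -1.24 to a level under 5.

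**Figure D2:**
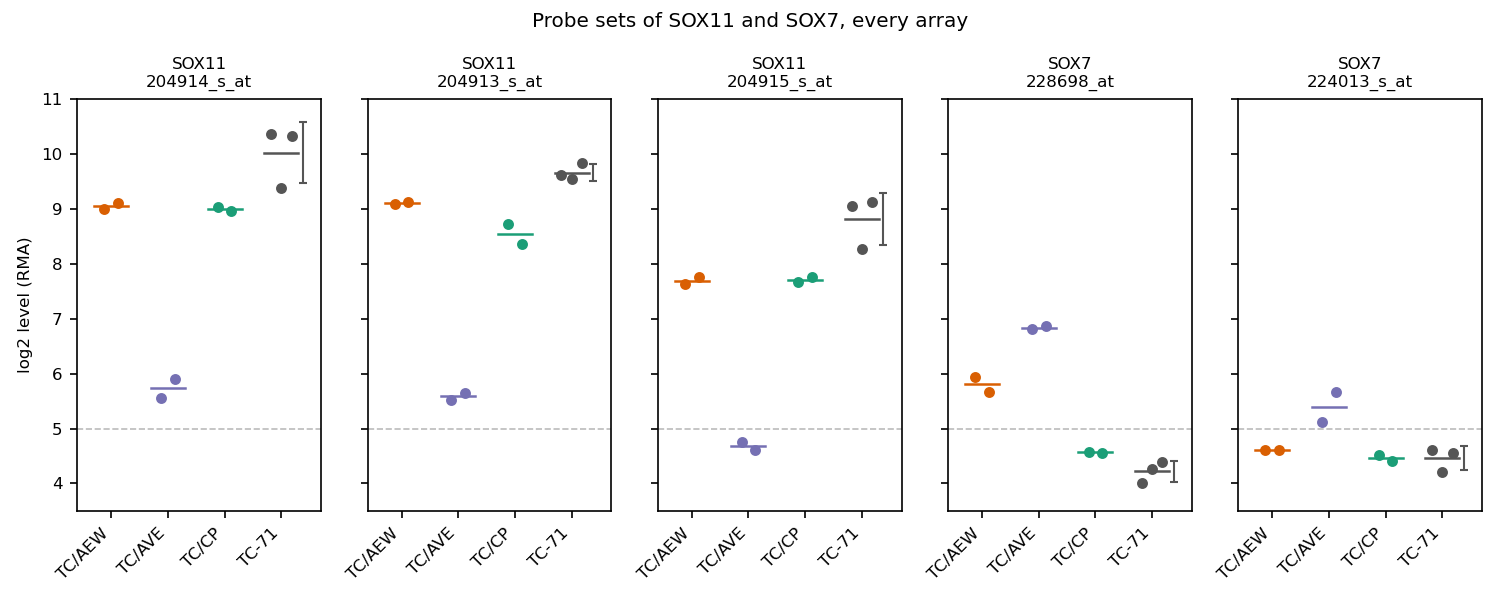
Log2 level (vertical axis, RMA) of the 3 SOX11 and 2 SOX7 probe sets on every array; points are arrays, lines group means, the bar beside TC-71 its SD over 3 samples, and the dashed line the filter at 5. All 3 SOX11 probe sets put TC/AVE lowest, at 5.73, 5.58 and 4.68, and both SOX7 probe sets put it highest, at 6.84 and 5.39.

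SOX4, a SOXC factor of progenitors and many tumours, read 10.07 and 10.16 in TC/AEW, 9.76 and 9.97 in TC/AVE, 9.72 and 9.64 in TC/CP, and 9.88, 9.80 and 10.04 in TC-71. Both TC/AEW arrays lay above and both TC/CP arrays below all TC-71 arrays, by small amounts: the differences were 0.21 ± 0.22 in TC/AEW (95% interval -0.36 to 0.77), -0.04 ± 0.22 in TC/AVE (-0.61 to 0.53) and -0.22 ± 0.22 in TC/CP (-0.79 to 0.34). The other kept probe sets of SOX4 also put TC/CP lowest, with differences of -0.46, -0.40 and -0.49. On 201416_at TC/AEW and TC/AVE stood 0.54 and 0.36 above TC-71 and clear of its arrays, while on 201418_s_at and 213668_s_at both overlapped with TC-71.

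SOX12, a weaker activator than the other SOXC factors, read 7.05 and 7.13 in TC/AEW, 7.18 and 7.07 in TC/AVE, 7.12 and 7.13 in TC/CP, and 7.50, 7.03 and 7.13 in TC-71. The groups overlapped in every line on this probe set. On 228358_at TC/AVE, at 6.59 and 6.61, lay just above the TC-71 arrays, at 6.55, 6.08 and 6.34, with a difference of means of 0.28. On the main probe set its differences were -0.13 in TC/AEW, -0.10 in TC/AVE and -0.10 in TC/CP, each ± 0.27 (SE), with 95% intervals that together ran from -0.83 to 0.60.

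SOX2, the SOXB1 factor that holds pluripotent and neural stem cells, was lower in TC/AEW on its main probe set. It read 8.83 and 8.81 in TC/AEW, 9.32 and 9.32 in TC/AVE, 9.22 and 9.17 in TC/CP, and 9.19, 9.38 and 9.50 in TC-71. Only the TC/AEW arrays lay clear of TC-71, at -0.54 ± 0.23 (1.45-fold lower, unadjusted p = 0.0679, adjusted p = 1.00 by limma), and -0.56 within its array set. The differences in TC/AVE and TC/CP were -0.04 and -0.17. The order of lines changed with the probe set. On 213721_at TC/CP was lowest (-0.82, with TC/AEW at -0.42 and TC/AVE at 0.20), and on 213722_at TC/CP was -0.56, TC/AVE 0.44 and TC/AEW 0.03. SOX2 lies inside the transcribed region of SOX2-OT, a long non-coding RNA, whose own probe set read 3.01 to 3.51 over the 9 arrays.

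SOX6, a SOXD factor without an activation domain of its own, was the member with the most probe sets, 8 in all, of which 6 were kept. On the main probe set it read 9.92 and 9.98 in TC/AEW, 9.29 and 9.23 in TC/AVE, 9.60 and 9.57 in TC/CP, and 9.65, 9.93 and 10.12 in TC-71. TC/AEW overlapped with TC-71 while both antibody-selected lines lay below it. The difference was 0.05 ± 0.26 in TC/AEW, -0.64 ± 0.26 in TC/AVE (1.56-fold lower, unadjusted p = 0.0599, adjusted p = 0.718 by limma) and -0.32 ± 0.26 in TC/CP (adjusted p = 0.998).

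The probe sets of SOX6 differed in size and in direction. On 228214_at and 227497_at TC/AVE was -0.49 and -0.84 and TC/CP -0.57 and -0.37, with both arrays of both lines below TC-71. On 227497_at TC/AEW also lay below all TC-71 arrays, at -0.25. On 223865_at the larger difference was in TC/CP, which read 6.41 and 6.41 against 7.75, 8.07 and 7.12 in TC-71, a difference of -1.24, with TC/AVE at -0.45. On 235526_at TC/AVE lay above TC-71, at 7.93 and 8.12 in TC/AVE against 6.93, 7.80 and 7.64 in TC-71. On 224178_s_at every line overlapped with TC-71, whose samples spanned 1.55. The probe sets thus gave TC/AVE minus TC-71 between -0.84 and 0.57.

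SOX6 has 5 annotated start regions in the RefSeq promoter table (GRCh38.p14), and probe sets were not paired with starts here. The first and the fifth are shown because they differ in composition and in SOX motifs, beside that of SOX2, the SOXB1 member. Each is the 300-base region around the start, 5′ to 3′ on the gene's strand, with capitals on matches to ACAAAG or AACAAT on either strand (CTTTGT and ATTGTT), 2 forms of the SOX core motif that do not overlap here.
SOX6 start 1, chr11:16738428-16738727, minus strand: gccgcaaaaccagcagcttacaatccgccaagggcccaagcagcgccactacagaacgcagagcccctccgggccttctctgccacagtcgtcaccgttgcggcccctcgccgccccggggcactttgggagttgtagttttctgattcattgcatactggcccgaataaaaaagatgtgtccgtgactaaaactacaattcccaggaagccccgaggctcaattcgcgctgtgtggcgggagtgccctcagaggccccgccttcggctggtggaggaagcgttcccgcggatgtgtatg
SOX6 start 5, chr11:16356497-16356796, minus strand: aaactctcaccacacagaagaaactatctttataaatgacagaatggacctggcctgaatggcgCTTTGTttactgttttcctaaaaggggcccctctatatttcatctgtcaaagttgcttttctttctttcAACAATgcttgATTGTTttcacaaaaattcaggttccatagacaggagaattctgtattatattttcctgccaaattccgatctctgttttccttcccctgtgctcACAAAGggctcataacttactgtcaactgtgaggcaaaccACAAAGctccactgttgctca
SOX2, chr3:181711675-181711974, plus strand: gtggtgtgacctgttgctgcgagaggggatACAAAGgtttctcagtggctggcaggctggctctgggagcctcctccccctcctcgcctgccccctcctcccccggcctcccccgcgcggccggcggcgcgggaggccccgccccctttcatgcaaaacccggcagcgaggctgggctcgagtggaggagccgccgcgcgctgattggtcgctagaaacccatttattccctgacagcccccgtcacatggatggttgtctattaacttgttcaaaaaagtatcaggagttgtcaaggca

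The fifth SOX6 start held 3 matches to ACAAAG and 2 to AACAAT, at 40.0% G and C. The first start held 0 of either, at 60.0% G and C, and SOX2 held 1 match to ACAAAG at 63.3%. Among 35116 start regions of this length 16.1% held ACAAAG, 10.1% AACAAT and 23.9% at least 1 of them. Of the 10 members 5 were matched in the table, SOX2, SOX4, SOX5, SOX6 and SOX12, with 9 start regions in all, of which 5 held at least 1 match: that of SOX2, that of SOX5 and starts 2, 4 and 5 of SOX6. The doubled ETS core GGAAGGAA (TTCCTTCC on the other strand), which the FLI1 part of the fusion can bind, was in 3.67% of all start regions and in 1 of the 9 of the members, the fifth of SOX6.

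**Figure D3:**
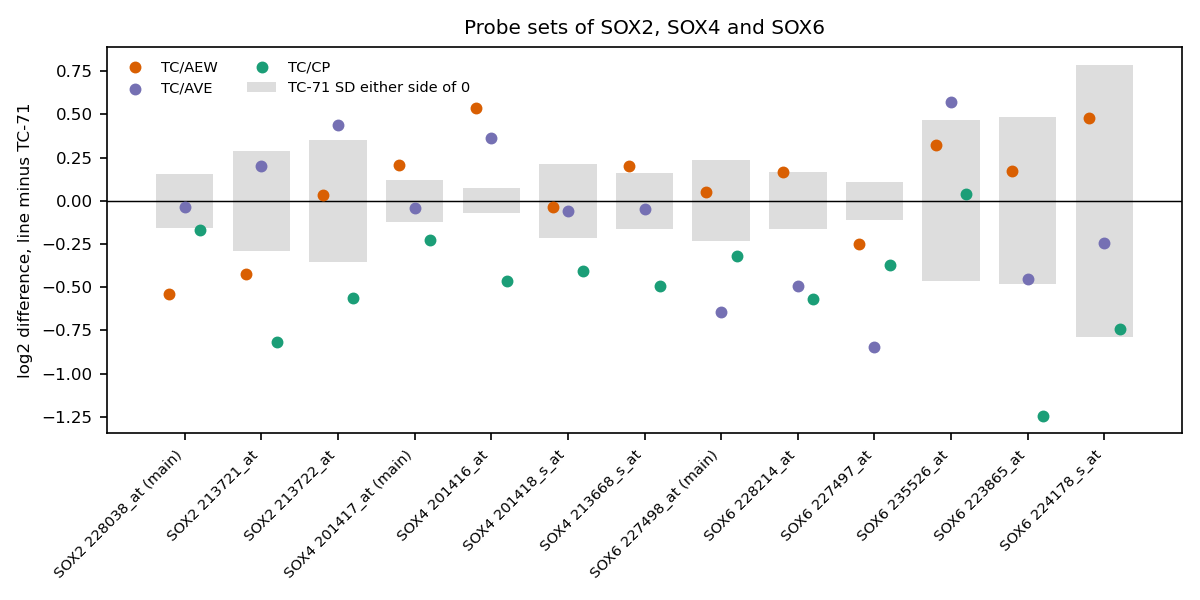
Difference of each line from the TC-71 mean on the log2 scale (vertical axis) for the 13 kept probe sets of SOX2, SOX4 and SOX6 (horizontal axis); points are lines, grey bars 1 SD of the 3 TC-71 samples either side of 0. TC/CP is the lowest point on all 4 probe sets of SOX4, and SOX6 in TC/AVE runs from -0.84 to 0.57.

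SOX5, the SOXD partner of SOX6 in cartilage, passed the filter by 1 probe set and 2 arrays, TC/AVE replicate 2 at 5.14 and TC-71 sample 3 at 5.07. The group levels were 4.74 in TC/AEW, 4.99 in TC/AVE, 4.72 in TC/CP and 4.89 ± 0.16 in TC-71, all under 5. Its differences may thus be background, though the counts and medians of the members include them. Its other 3 probe sets averaged 3.40 to 4.08 over the arrays.

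SOX8 and SOX9 are SOXE factors of neural crest, glia, gonad and cartilage. SOX8 read 5.69 and 5.58 in TC/AEW, 5.98 and 6.22 in TC/AVE, 4.75 and 5.23 in TC/CP, and 6.25, 5.20 and 6.14 in TC-71. Such levels may be background. TC-71 sample 2 was the lowest of the 3 TC-71 samples, whose range was 1.06, and each line overlapped with the TC-71 arrays. TC/CP had the lowest level, 4.99 against 5.86 ± 0.58 in TC-71, a difference of -0.88 ± 0.47, a bound since TC/CP was under 5 (95% interval -2.08 to 0.33, adjusted p = 0.998 by limma). Against the TC-71 sample of its own array set SOX8 was 0.44 in TC/AEW, 0.90 in TC/AVE and -1.15 in TC/CP, so the sign in TC/AEW turned with the sample it was set against. SOX9, the master factor of cartilage, read 3.25 to 3.59 in the lines and 3.28 to 3.74 in TC-71 on its main probe set, and 2.86 to 3.53 over the 9 arrays on the other.

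SOX7, a SOXF factor of vessel and endoderm development, was higher in TC/AVE and TC/AEW. It read 5.94 and 5.67 in TC/AEW, 6.82 and 6.86 in TC/AVE, 4.58 and 4.56 in TC/CP, and 4.01, 4.26 and 4.39 in TC-71. Every line array lay above all TC-71 arrays, and those of TC/AVE above every other. SOX7 passed the filter only through TC/AEW and TC/AVE, so a difference was built into its being tested. TC-71 stood at 4.22 ± 0.19, near background, so the differences are lower bounds: at least 2.62 ± 0.25 in TC/AVE (95% interval 1.99 to 3.25, unadjusted p = 0.000124, adjusted p = 0.168 by limma) and at least 1.58 ± 0.25 in TC/AEW (0.95 to 2.21, adjusted p = 0.719). In TC/AEW limma called 0 genes (0%) and 501 (3.53%) had an unadjusted p under 0.05. With each array centred on its median gene SOX7 in TC/AVE had adjusted p = 0.0258 by limma, at 2.61.

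In TC/CP SOX7 stood at 4.57, under 5 as in TC-71. Within array sets TC/AVE was 2.58 and TC/AEW 1.55 above TC-71 sample 2. The other probe set, 224013_s_at, read 4.62 and 4.62 in TC/AEW, 5.11 and 5.67 in TC/AVE, 4.52 and 4.41 in TC/CP, and 4.62, 4.22 and 4.55 in TC-71. It put TC/AVE above TC-71, by at least 0.93, and TC/AEW among the TC-71 values, so the TC/AEW level of SOX7 rested on 1 probe set. The nearest tested genes on either side were C8orf74, which differed by 0.00 in TC/AEW and -0.20 in TC/AVE, and PINX1, a telomerase inhibitor gene, which differed by -0.10 and -0.23.

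SOX17, the SOXF factor of endoderm and arteries, read 3.61 to 3.98 in the lines and 3.82 to 3.91 in TC-71. SOX18, the third SOXF gene and no member, had 1 probe set, of the _x_at kind that is prone to cross-hybridisation, which stood at 5.20 in TC/AEW, 4.19 in TC/AVE, 5.65 in TC/CP and 5.33 ± 0.37 in TC-71.

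**Figure D4:**
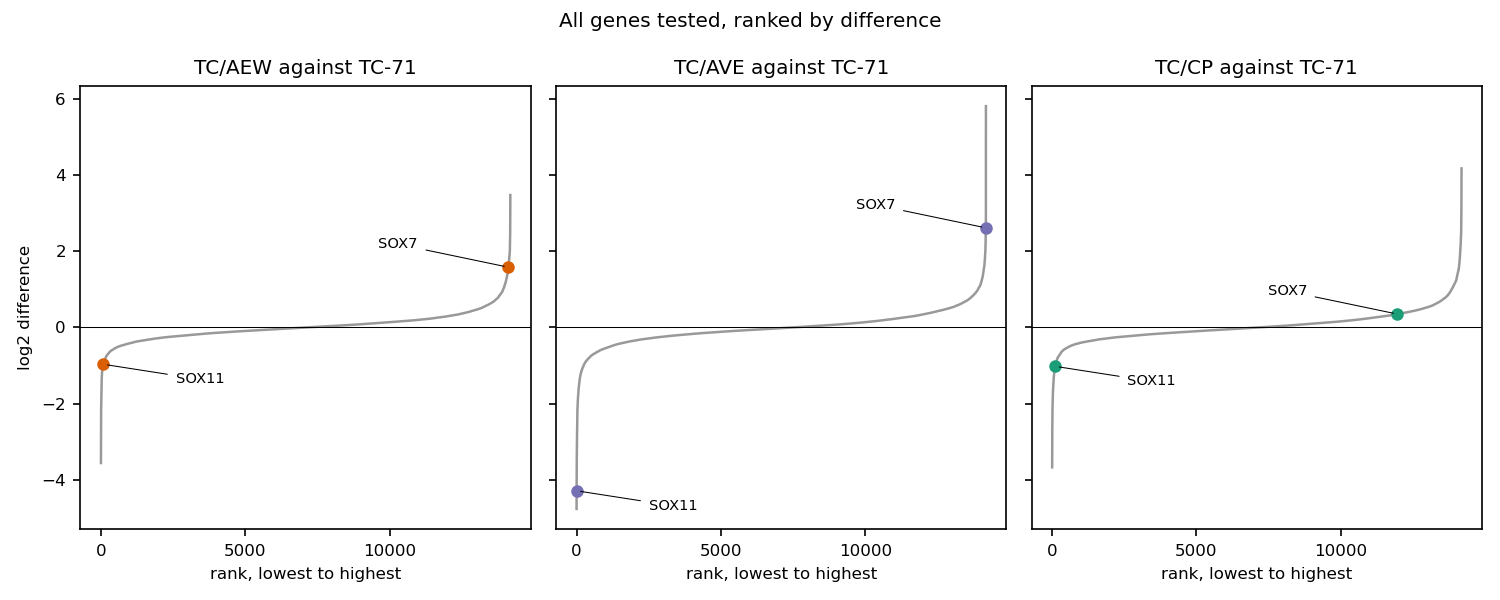
All 14181 genes ranked by their log2 difference from TC-71 (horizontal axis rank, vertical axis difference) in each line, with SOX11 and SOX7 marked. In TC/AVE SOX11 (-4.29) lies near the low end of the ranking. SOX7 had a TC-71 level near background and passed the filter only through TC/AEW and TC/AVE. Its place is therefore no support, and it is marked only to show where it falls.

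Counted over the members, 0 of 8 tested genes passed over all genes in any single line. In TC/CP limma called 0 genes (0%), and 705 (4.97%) had an unadjusted p under 0.05, 0 of them members. Lower than TC-71 were 5 of 8 members in TC/AEW (49.7% of all genes), 5 of 8 in TC/AVE (52.6%) and 7 of 8 in TC/CP (50.3%). In TC/AVE 1 member, SOX7, lay with both arrays above all TC-71 arrays, as did 19.6% of all genes, and 2, SOX11 and SOX6, lay below, as did 19.7%. In TC/AEW SOX4 and SOX7 lay above (15.3% of all genes) and SOX2 and SOX11 below (14.3%). In TC/CP SOX7 lay above (21.1%) and SOX4, SOX11 and SOX6 below (17%). At least 2-fold apart from TC-71 were SOX7 in TC/AEW (2.24% of all genes), SOX11 and SOX7 in TC/AVE (3.72%) and SOX11 in TC/CP (3.22%). The median difference of the 8 tested members was -0.14 in TC/AEW, -0.04 in TC/AVE and -0.20 in TC/CP, against 0.00, -0.02 and 0.00 over all genes. These shares describe the members as chosen.

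**Figure D5:**
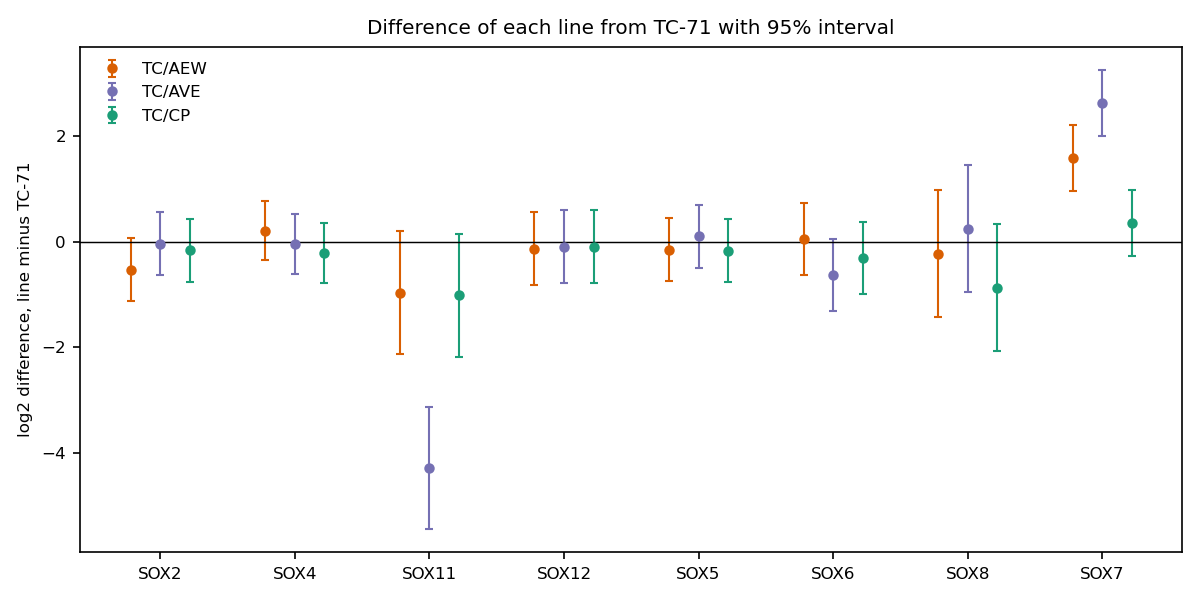
Log2 difference of each resistant line from TC-71 (vertical axis) for the 8 tested SOX genes (horizontal axis), with 95% intervals from limma. The interval of SOX11 in TC/AVE runs from -5.45 to -3.13. Those of SOX7 belong to differences that are lower bounds, in a gene that passed the filter through TC/AEW and TC/AVE, so their distance from 0 is no support.

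The 3 lines were also set together against TC-71, to ask what went with resistance whatever the agent. In this comparison limma called 3 genes (0.0212%), none of them a member, and 1187 (8.37%) had an unadjusted p under 0.05. SOX11 was the member lower on every array of every line, as were 4.27% of all genes, and SOX7 the member higher on every array, as were 5.11%. SOX7 passed the filter only through TC/AEW and TC/AVE, and both TC/CP and TC-71 were under the filter level, so its place here is no support. On its other probe set, 224013_s_at, TC/AEW and TC/CP overlapped with TC-71. SOX11 differed by -2.09 ± 0.87 (unadjusted p = 0.0465, adjusted p = 0.591 by limma) and SOX7 by at least 1.52 ± 0.51 (unadjusted p = 0.0208, adjusted p = 0.499). Both sizes leaned on TC/AVE: without that line SOX11 was -0.99 and SOX7 0.97. With the array set as a block SOX11 was -1.71 and SOX7 1.26. At least 2-fold apart were these 2 members and 1.59% of all genes. The other 6 tested members lay between -0.30 and -0.02, each lower in the mean of the lines, as were 50.9% of all genes.

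Set against the mean of the antibody-selected lines, TC/AEW had SOX11 higher by 1.69 ± 0.48 (3.22-fold, the 1 member at least 2-fold apart, as were 1.33% of all genes, unadjusted p = 0.0168, adjusted p = 1.00 by limma), where limma called 0 genes (0%) and 263 (1.85%) had an unadjusted p under 0.05. This mean joins a level of 5.73 in TC/AVE with one of 9.002 in TC/CP. TC/AEW at 9.06 was close to TC/CP on the main probe set. TC/CP lies in a different array set from TC/AEW and TC/AVE, with each line as 1 sample. Where TC/CP is set against those lines, line and array set thus cannot be told apart. TC/AVE against TC/CP gave -3.27 ± 0.55 for SOX11 (9.65-fold lower, again a fold that may be a lower bound, adjusted p = 0.423), at least 2.27 ± 0.30 for SOX7 (adjusted p = 0.360) and at least 1.12 ± 0.57 for SOX8 (adjusted p = 0.974), the last from a TC/CP level of 4.99. These 3 were the members at least 2-fold apart, as were 4.75% of all genes. Limma called 0 genes (0%) there, with 816 (5.75%) at an unadjusted p under 0.05.

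Of 9 further SOX genes 6 were tested, SOX1, SOX3, SOX10, SOX13, SOX15 and SOX18, and 0 passed in any comparison. In the lines in common 2 of them were higher, 4 were lower, and the median was -0.15, against -0.01 over all genes. SOX18 had the largest difference (-0.31), followed by SOX3, which stood at 5.16 in TC/AEW, 5.10 in TC/AVE, 5.04 in TC/CP and 5.34 ± 0.05 in TC-71. SOX14, SOX21 and SOX30 stayed below the filter.

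Genes that work with or under SOX factors were read from lists, which were chosen with earlier results of these data known. Of 11 tested partner factors and coactivators 0 passed, with 6 higher and 5 lower in the lines in common and a median of 0.04. POU3F3, a POU factor of the developing brain, stood at 3.71 in TC/AEW, 5.61 in TC/AVE, 3.53 in TC/CP and 3.60 ± 0.23 in TC-71. It was at least 2.01 higher in TC/AVE, the only group with a mean above the filter level. A difference was thus built into its being tested, so its place here is no support. CTNNB1, the WNT effector beta-catenin, stood at 10.35 in TC/AEW, 10.56 in TC/AVE, 10.13 in TC/CP and 10.08 ± 0.34 in TC-71, and PAX6, a partner of SOX2 in eye and brain, at 9.58 in TC/AEW, 9.83 in TC/AVE, 8.80 in TC/CP and 9.14 ± 0.32 in TC-71. Of 9 listed genes of nuclear import, export and SUMO conjugation 4 were tested, PIAS1, PIAS4, KPNB1 and XPO1, and 0 passed. All 4 were higher in the lines in common, with a median of 0.16 against -0.01 over all genes, of which 50.9% were lower. KPNB1 was lower in TC/AVE (-0.14).

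Of the neuronal genes listed with the SOXC subgroup 5 of 9 were tested and 0 passed. The list was chosen with earlier results of these data known, so its counts and median are a description and no support. In TC/AVE 4 of them were lower, with a median of -1.64 against -0.02 over all genes, and INA, NEFM and NEFL, which encode neuronal intermediate filaments, were at least 2-fold lower, as were 1.73% of all genes. INA stood at 8.12 in TC/AEW, 6.62 in TC/AVE, 8.28 in TC/CP and 8.26 ± 0.20 in TC-71 (-1.64 in TC/AVE, adjusted p = 0.277 by limma). NEFM stood at 8.12 in TC/AEW, 6.28 in TC/AVE, 9.92 in TC/CP and 8.22 ± 0.50 in TC-71, and NEFL, named after its values were seen, at 9.61 in TC/AEW, 7.51 in TC/AVE, 10.64 in TC/CP and 9.36 ± 0.32 in TC-71. TC/CP lay above TC-71 for both neurofilaments. TEAD2, a partner of YAP that SOXC factors activate in mouse, was lower on every array of every line, at 8.57 in TC/AEW, 8.44 in TC/AVE, 8.49 in TC/CP and 9.26 ± 0.17 in TC-71 (-0.76 in the lines in common, adjusted p = 0.204). TUBB3, a neuronal tubulin that SOXC factors switch on, stood at 12.55 in TC/AEW, 12.85 in TC/AVE, 12.19 in TC/CP and 12.64 ± 0.23 in TC-71.

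Of the stem cell genes listed with SOX2 5 of 11 were tested and 0 passed, with a median of 0.12 in the lines in common. NES, the progenitor filament nestin, stood at 6.53 in TC/AEW, 5.67 in TC/AVE, 7.95 in TC/CP and 6.41 ± 0.43 in TC-71, and LIN28B, which blocks let-7 maturation, at 9.68 in TC/AEW, 9.02 in TC/AVE, 9.96 in TC/CP and 9.43 ± 0.27 in TC-71. Of 8 tested cartilage genes 0 passed, 3 higher and 5 lower. CNMD, the cartilage protein chondromodulin, stood at 5.86 in TC/AEW, 4.78 in TC/AVE, 7.86 in TC/CP and 5.40 ± 0.28 in TC-71, and COL2A1, the main cartilage collagen, at 6.39 in TC/AEW, 6.73 in TC/AVE, 7.22 in TC/CP and 6.99 ± 0.31 in TC-71. NES, LIN28B, NEFM, NEFL and CNMD were each highest in TC/CP and lowest in TC/AVE, an order picked out after the values were seen. Other listed genes, among them INA, LEF1 and FOXD3, had the same order, and its share over all genes was not counted.

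Of 9 tested neural crest and glial genes 0 passed, 3 higher and 6 lower. TFAP2B had the largest difference of the lines in common (-0.85). It stood at 5.08 in TC/AEW, 4.03 in TC/AVE, 4.14 in TC/CP and 5.27 ± 0.56 in TC-71, levels that may be background. MITF, the melanocyte factor, was higher on every array of every line, at 6.59 in TC/AEW, 6.90 in TC/AVE, 6.01 in TC/CP and 5.71 ± 0.33 in TC-71 (0.79 in the lines in common, adjusted p = 0.499 by limma), and TFAP2A, a neural crest factor, stood at 8.32 in TC/AEW, 8.79 in TC/AVE, 7.85 in TC/CP and 9.10 ± 0.29 in TC-71. Of 7 tested endothelial and endodermal genes 0 passed, 4 higher and 3 lower. CXCR4, a chemokine receptor of endoderm and vessels, was higher on every array, at 5.80 in TC/AEW, 6.745 in TC/AVE, 5.99 in TC/CP and 5.59 ± 0.12 in TC-71, and GATA4, an endoderm factor, stood at 6.06 in TC/AEW, 5.78 in TC/AVE, 6.56 in TC/CP and 6.65 ± 0.29 in TC-71.

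The genes most like the 3 members with the widest range over the 6 samples were found by Pearson correlation of log2 levels over those samples, among 2894 genes with a range of at least 1. The samples share 1 parental line, and 3 of the 6 are TC-71, so the coefficients are a description. SOX11 (range 4.62) was most like MACROH2A2 (0.978), ENPEP (0.972), MCM5 (0.972), MDK (0.970) and CNPY3 (0.965). Of these 5 genes ENPEP came closest in range, at 8.38 in TC/AEW, 5.45 in TC/AVE, 8.50 in TC/CP and 9.64 in TC-71. SOX7 (range 2.82) was most like TBC1D8B (0.981), MGAT5 (0.976), TAP1 (0.976), ADGRG6 (0.974) and TSHZ1 (0.970), of which ADGRG6 stood at 5.81 in TC/AEW, 6.63 in TC/AVE, 4.90 in TC/CP and 4.17 in TC-71. SOX8 (range 1.27) was most like NEURL1B (0.929), OLFM1 (0.928), BNC2 (0.901), VASH1 (0.900) and GDF10 (0.882). At a coefficient over 0.95 there were 10 genes for SOX11, 15 for SOX7 and 0 for SOX8.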

How the data were processed

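The authors deposited log2 values from 9 arrays, 1 per probe set. Per the submitters' processing notes they used RMA and affy, whose versions are not given in the sources used here. After leaving out 62 control probe sets, 41091 of 54613 probe sets carried 1 gene symbol, taken from GEO's platform annotation; 41037 were matched by gene identifier to a RefSeq table (GRCh38.p14), which updated 0 symbols. Of these, 26952 with at least 2 arrays at 5 or more were kept. Each gene was represented by the brightest of its kept probe sets, an _x_at one only where it had no other, which gave 14181 genes.

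The 2 arrays of a line were averaged, and limma 3.58.1 (R 4.3.3) was fitted to 6 samples (two-sided, Benjamini-Hochberg over all genes, threshold 0.05), in a fit with 4 groups (2 residual and 3.00 prior degrees of freedom) and one with 2 groups (4 and 3.06). Array sets follow the scan file names in the labels: set 1 is TC-71 sample 1, set 2 holds TC/AEW, TC/AVE and TC-71 sample 2, and set 3 holds TC/CP and TC-71 sample 3. The number of arrays limits the precision. The test was tested on simulated data. The named genes were the members, the other SOX genes, the 5 genes most like each of 3 members, and genes from the lists. Most of the list genes were among the 4 of their list with the largest difference of the lines in common. Not every such gene was named. The members, lists and tests were chosen with earlier results of these data known. Alternatives covered the filter, the probe set of a gene, scaling, arrays as samples, array set and left-out samples.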

Additional observations from a re-analysis of the deposited data

Results flagged for a closer look

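SOX4 was singled out because both arrays of TC/AEW lay above all TC-71 arrays and both arrays of TC/CP below them, at differences of 0.21 in TC/AEW and -0.22 in TC/CP on the log2 scale. The difference between those lines was not tested, and the 95% interval of each against TC-71 held 0.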

How the results depend on the processing

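Of 730 values of members under the alternatives, 678 kept their direction and their side of the threshold (or, untested, moved by less than 1 SD of TC-71). As deposited, 0 members were called in any comparison. With each array centred on its median gene, 2 were called in TC/AVE (SOX11 and SOX7, adjusted p = 0.0258 each by limma), among 34 genes called in all; the median of TC-71 sample 1 was 0.14 below the mean of medians, and the prior degrees of freedom were 5.15 in place of 3.00. With 9 arrays in the fit as if each were a sample, so that technical spread stood in for biological, 2 members were called in TC/AEW (SOX2 and SOX7), 3 in TC/AVE (SOX6, SOX7 and SOX11), 1 in TC/AEW against the mean of the other lines and 2 in TC/AVE against TC/CP, among 547, 1857, 295 and 1897 genes called in all. The replicate block on these arrays gave 1, 2, 1 and 2, among 350, 1220, 238 and 1798; the numbers mark technical arrays of lines and samples of TC-71, so they pair nothing by design. The adjusted p of SOX11 in TC/AVE ran from 0.000109 to 1.00 and its difference from -4.61 to -3.65, and for SOX7 from 5.13e-05 to 1.00 and from 1.77 to 2.70, lowest with the mean of its probe sets. Genes called over the whole table ran from 0 to 1857 in TC/AVE and from 0 to 240 in the lines in common, most with 9 arrays as samples.

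Differences that changed sign were no larger than 0.32 as reported, and the cause was not tested. With the mean of kept probe sets, SOX2, SOX4 and SOX12 in TC/AVE became 0.201, 0.0539 and 0.0895, SOX7 in TC/AEW against the mean of the other lines -0.107, and SOX6 in TC/AVE against TC/CP 0.183. With the replicate block, SOX2 and SOX4 in TC/AVE became 0.0334 and 0.0274, and SOX4 and SOX5 in the lines in common 0.0481 and 0.0160. With the array set as a block SOX12 in the lines in common became 0.0383. With samples of TC-71 or whole lines left out in turn, SOX12 ran from -0.227 to 0.00565 in TC/AEW, -0.190 to 0.0427 in TC/AVE, -0.192 to 0.0409 in TC/CP and -0.203 to 0.0297 in the lines in common. SOX6 in TC/AEW ran from -0.0739 to 0.160, and in TC/AVE SOX2 ran from -0.122 to 0.0334, SOX4 from -0.0935 to 0.0274 and SOX8 from -0.0937 to 0.434. In the lines in common SOX4 ran from -0.132 to 0.0841, SOX5 from -0.161 to 0.0160 and SOX8 from -0.622 to 0.00484. Without array 1 of each line SOX4 was 0.0638 in TC/AVE and 0.0172 in the lines in common, SOX12, SOX8 and SOX7 were 0.0313, -0.151 and -0.0433 in TC/AEW against the mean of the other lines, and SOX12 was -0.0626 in TC/AVE against TC/CP. Without array 2 SOX5 was -0.0434 in TC/AVE and 0.0369 in TC/AEW against the mean of the other lines.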
